A study of Homo sapiens with 3 samples.

Results

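Cluster 11 is one of 14 clusters into which single cells of differentiated embryonal carcinoma (EC) cells had been sorted by their transcriptomes. Its members were taken from the deposited cluster numbers, and they comprised 459 of 20844 cells (2.20%, exact 95% interval 2.01 to 2.41%, counting error only). The cells came from 3 EC lines, NCCIT, GCT27 and 2102EP, which are cultured stem cell-like cells of germ cell tumors, with 1 library per line. For the GCT27 library the title and the cell line label disagreed (GCT26), and the title was used. All 3 lines carried a stable lentiviral MPHv2 activator helper with hygromycin resistance, and all had received SOX17-lenti-SAMv2 viruses, which activate the endogenous SOX17 gene by CRISPR. Afterwards all were treated with Activin-A (100 ng/mL), the WNT agonist CHIRON (3 µM), FGF2 (25 ng/mL) and heparin (1 µg/mL), renewed every 48 h until day 8, as a protocol for turning EC cells into cells like those of a yolk-sac tumor (YST). The replicates of a line had been pooled before sequencing, and no library of untreated cells was analysed here.

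The values are average UMIs (counted transcript molecules) per 10000 UMIs of a cell, averaged over the cells of a cluster and pooled over the libraries. The library codes of the cell table matched no sample label, so no value belongs to a named line. No spread over cells or cultures came with the averages. Because the authors derived the clusters from these very transcriptomes, differences between clusters are described without a test, with the same count for the other clusters or for all genes beside them. For 1 gene, a difference is the log2 of its average in cluster 11 over the mean of the other 13 clusters, with 0.1 added to each.

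Metallothioneins are small cysteine-rich proteins that bind zinc and copper and buffer the free metal of a cell. They can also bind platinum drugs such as cisplatin. Most human metallothionein genes lie side by side on chromosome 16, and the transcription factor MTF1 switches them on through short metal response elements in their promoters. ANKRD1, a muscle-type ankyrin repeat protein and YAP target, and CST1, a secreted cystatin protease inhibitor, were given as further markers of the cluster.

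To show what the metallothionein promoters have in common, the 250 bases before the start of 4 family members are printed from the RefSeq table (GRCh38.p14), all on the plus strand of chromosome 16. MT2A (chr16:56608334-56608583) and MT1X (chr16:56682220-56682469) were among the genes at their highest average in cluster 11. MT1B (chr16:56651636-56651885) and MT1H (chr16:56669564-56669813) were near 0 in all 14 clusters. Capitals mark matches to TGCACNC or TGCGCNC, a core spelling of the metal response element, on either strand. The matches did not overlap each other.
MT2A: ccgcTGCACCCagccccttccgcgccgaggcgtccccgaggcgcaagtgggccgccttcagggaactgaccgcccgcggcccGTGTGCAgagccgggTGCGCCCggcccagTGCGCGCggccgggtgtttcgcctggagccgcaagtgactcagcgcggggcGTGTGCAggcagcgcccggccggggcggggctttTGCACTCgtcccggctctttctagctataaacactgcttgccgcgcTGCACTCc
MT1X: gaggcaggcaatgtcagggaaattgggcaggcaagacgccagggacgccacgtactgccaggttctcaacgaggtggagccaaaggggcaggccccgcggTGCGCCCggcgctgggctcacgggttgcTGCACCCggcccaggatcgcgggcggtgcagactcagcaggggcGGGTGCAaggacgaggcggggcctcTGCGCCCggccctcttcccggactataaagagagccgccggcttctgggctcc
MT1B: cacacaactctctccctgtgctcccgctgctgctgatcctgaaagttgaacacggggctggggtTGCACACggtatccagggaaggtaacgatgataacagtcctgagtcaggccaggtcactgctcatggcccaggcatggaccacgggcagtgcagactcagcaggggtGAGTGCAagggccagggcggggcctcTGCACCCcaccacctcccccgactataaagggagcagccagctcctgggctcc
MT1H: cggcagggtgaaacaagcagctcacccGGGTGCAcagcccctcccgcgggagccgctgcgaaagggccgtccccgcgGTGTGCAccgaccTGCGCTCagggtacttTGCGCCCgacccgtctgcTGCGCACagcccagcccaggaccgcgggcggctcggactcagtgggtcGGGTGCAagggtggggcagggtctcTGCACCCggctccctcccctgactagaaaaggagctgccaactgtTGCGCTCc
MT2A held 7 matches, MT1X 4, MT1B 3 and MT1H 8. Of 35116 promoters searched in the same window, 24.8% held at least 1 match, 1.58% at least 3, 0.37% at least 4, 0.0313% at least 7 and 0.0171% at least 8. The promoter with most matches was thus that of MT1H, whose average was 0.000846 in cluster 11 and at most 0.00124 elsewhere. A match describes letters only. Of the 11 metallothioneins on the list 5 were in the table, the remaining 1 being MT4.

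The metallothioneins were higher in cluster 11 than in any other cluster when summed. The 11 genes together had 46.0 UMIs per 10000 there. Cluster 5 followed with 36.3 and cluster 1 with 30.4, and the other 11 clusters ranged from 1.12 (cluster 12) to 29.3 (cluster 10). MT2A, the most widely expressed member of the family, made up 69.6% of the sum. It stood at 32.0 in cluster 11, and in the other clusters its lowest average was 0.257, the median 13.4 and the highest 24.3, in cluster 5 (difference 1.56). MT1X was 9.51 in cluster 11, against 0.749 to 9.20 with a median of 4.39 (difference 1.07). The highest of these others was cluster 6, and it lay close to cluster 11. MT1M, with 1.44 against at most 1.14, and MT1F, with 1.43 against at most 1.38, were highest in cluster 11 as well, with differences of 1.31 and 1.13. For MT1X and MT1F the lead over cluster 6 was thus small, and no error is known by which to judge it.

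The family did not move as a whole. MT1E, another copy of the MT1 group, stood at 1.55 in cluster 11, below 8 other clusters, and was highest in cluster 1 with 3.27 (difference -0.12). MT1B was 0.0481 in cluster 11 and at most 0.0427 elsewhere. For MT1A, MT1G, MT1H and MT3 the highest average in any cluster was 0.0257 (MT1G in cluster 13), and MT4 was listed at 0 in cluster 11. The MT1 genes are near-identical copies, and the counting may have split reads between them. Of the 5 metallothioneins that reached an average of 0.1 over the clusters, 4 exceeded the others at least 2-fold in cluster 11. Among all 9917 genes that reached it, 81 (0.817%) did so. MT2A and MT1X are among the 4 and were given as markers of the cluster from these same averages. The count thus describes the cluster and is no check of its label. Of 14 expressed zinc and copper handling genes none was at least 2-fold higher and 1, the zinc exporter SLC30A7, was at least 2-fold lower (-1.03). Both counts were near the shares over all genes (0.817% higher and 6.14% lower). MTF1 stood at 0.12, against 0.188 on average elsewhere. The zinc exporter SLC30A1 was 0.149 against 0.143, and the copper chaperone ATOX1 3.90 against 2.99.

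**Figure D1:**
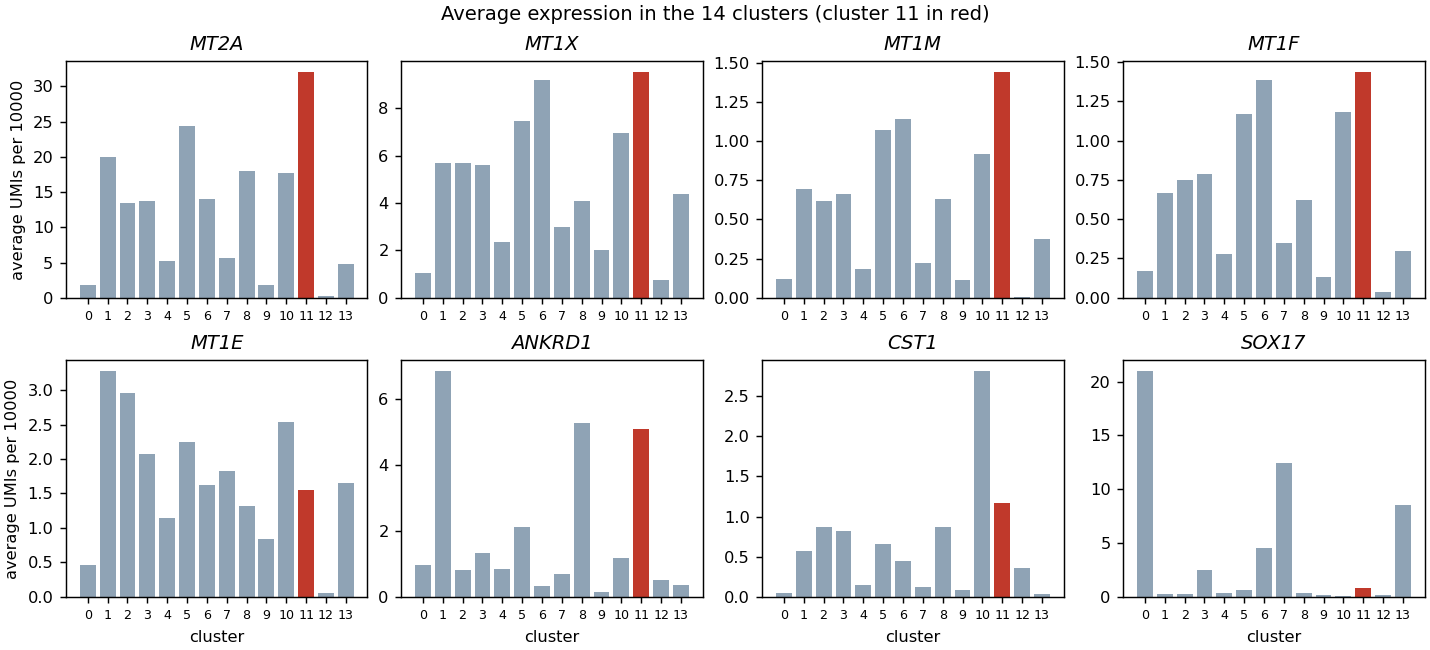
Average UMIs per 10000 (y axis, linear, from 0) in clusters 0 to 13 (x axis) for 5 metallothioneins, ANKRD1, CST1 and SOX17; cluster 11 is red and no error is known for the bars. MT2A (32.0), MT1X (9.51), MT1M (1.44) and MT1F (1.43) peak in cluster 11, while MT1E peaks in cluster 1 (3.27), ANKRD1 in cluster 1 (6.84), CST1 in cluster 10 (2.81) and SOX17 in cluster 0 (21.0).

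The other markers given for the cluster were not at their highest in it. ANKRD1 stood at 5.09 (difference 1.57), behind cluster 1 with 6.84 and cluster 8 with 5.28. In the remaining clusters it was far lower, and the median over the 13 others was 0.837. CST1 was 1.17 (difference 0.85) and had its highest average in cluster 10 with 2.81. It was still the second of the 14. SOX17, the induced endoderm transcription factor, was 0.821 in cluster 11, sixth of 14, with its highest levels in clusters 0 (21.0) and 7 (12.4, difference of cluster 11 -2.13). MT2A and MT1X were given as markers of the cluster from these same averages, so their levels describe it and are no check of its label. ANKRD1 and CST1 were high in other clusters as well.

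Whether the cells of cluster 11 were rich in RNA was read from the averages. A gene with 1 UMI in a single cell has an average of 10000 divided by the total of that cell and by the number of cells, so that genes seen in the same cell only share exactly the same low average. Values shared by at least 3 genes were converted to the total of such a cell. In cluster 11 there were 328 such values, shared by 2190 genes, with a median of 96228 UMIs per cell (10th percentile 55206, 90th percentile 134337). In the other clusters the medians ranged from 8533 in cluster 13 to 59675 in cluster 0, and the median of cluster 11 was 1.61 times that of cluster 0 and 3.57 times that of cluster 5 (26981). Cluster 13 gave 278 values from 42 cells and cluster 12 gave 186 from 180, so not every value is the total of 1 cell. The median of cluster 13 therefore cannot be read as UMIs per cell. Coverage also differed between clusters, with 328 values for the 459 cells of cluster 11 and 86 for the 2808 cells of cluster 0. The highest total was 174776 in cluster 11, yet it was 174536 in cluster 1, so that single cells of this size were not limited to cluster 11. The method favours deep cells, which hold more of such genes, so the totals are not those of typical cells. The labels state about 50000 reads per cell on average.

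Detection was listed only for the marker genes of each cluster. The deposited marker table listed 673 genes for cluster 11, and their median detection was 99.6% of its cells, against 85.5% of all other cells. For cluster 5, whose profile was closest, the 502 listed genes had a median detection of 42.5% inside and 93.0% outside. The 718 genes listed for cluster 13 had a median of 95.2%. Each list holds genes picked for its own cluster, so these medians do not compare detection between clusters. The study's methods state that doublets, droplets with more than 1 cell, were removed by a caller. Barcodes and UMI totals were not analysed here, and whether doublets remained among the 459 cells was not tested.

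**Figure D2:**
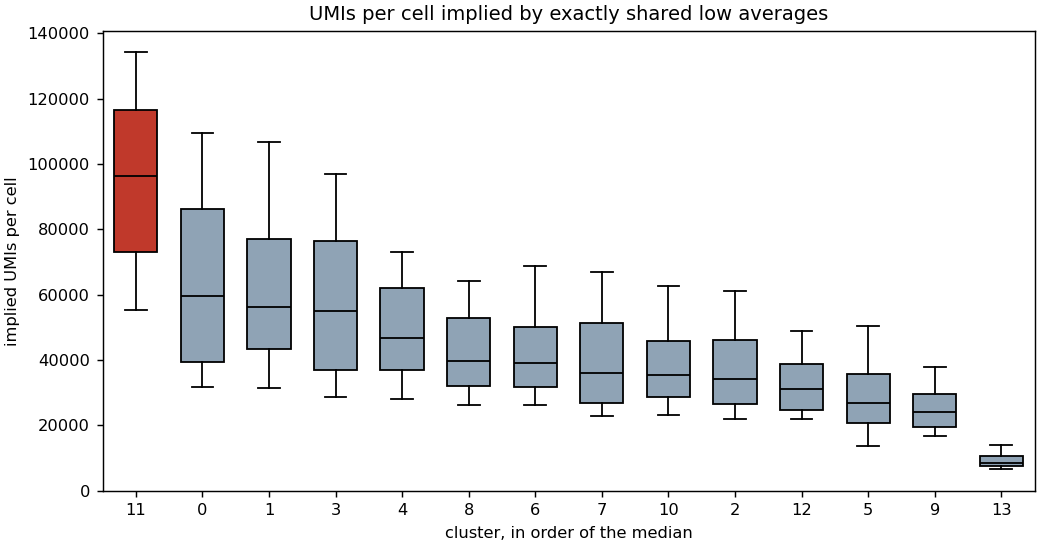
UMIs per cell (y axis, linear) implied by low averages that at least 3 genes share exactly, for the 14 clusters (x axis, in order of the median); boxes span the quartiles, the line is the median and whiskers reach the 10th and 90th percentiles. The median of cluster 11 (red) is 96228, and the others lie between 8533 (cluster 13) and 59675 (cluster 0). Cluster 13 has 278 values from 42 cells, so its values are not all totals of single cells.

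Cluster 11 was drawn mainly from 1 library. This main library gave 396 of its 459 cells (86.3%), and the other libraries gave 34 (7.41%) and 29 (6.32%). Over all clusters the same library held 8502 of 20844 cells (40.8%). Cluster 11 made up 4.66% of the cells of that library and 0.510% (63 of 12342) of the rest. The composition of the RNA was also unlike most clusters. The 79 ribosomal protein genes took 23.5% of the UMIs, a share close to that of cluster 5 (23.3%), below cluster 13 (29.6%) and above the other 11 (16.1 to 19.3%). Mitochondrial transcripts took 3.15%, within the range of the other clusters (2.47 to 6.10%). MALAT1, a long RNA kept in the nucleus, was lowest in cluster 11 with 25.4, against 32.8 to 120.0 elsewhere.

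Of the 9917 expressed genes, 81 (0.817%) stood 2-fold or more above the others in cluster 11 and 609 (6.14%) at least 2-fold lower. The median difference was -0.31, and group values are to be read against it. After rescaling each cluster by the median of its ratios to the gene means, the median was -0.05 and the counts were 299 and 195, so that 60.5% of the genes past 2-fold were higher instead of 11.7%. The split into higher and lower genes therefore depended on the scaling, and of the 76 genes named by rule and past 2-fold 51 remained past it.

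Few genes were set apart from every other cluster. A total of 15 genes (0.151%) had at least 1.5 times the average of the highest other cluster (0.1 added to both), against 0 to 158 in the other clusters described in the same way. Among genes that averaged at least 0.5 over the clusters, the largest ratio was that of DPH3 (1.69), a gene of diphthamide synthesis, with 2.42 in cluster 11 and 1.39 in cluster 5, the next. MLF2 followed with 7.78 against 4.80, then SVBP, a partner of the tubulin-cleaving vasohibins, with 1.86 against 1.14. TMA7, a small translation-associated protein, stood at 15.3 and was 9.71 in cluster 5. CD99, a cell surface glycoprotein, was 6.65 in cluster 11 and 4.25 in cluster 8. VKORC1, an enzyme of the vitamin K cycle, was 2.34 against 1.47 in cluster 4. The ribosomal protein gene RPL29 was 52.1 against 34.8. RBIS, GYPC, OST4, RTL8A, HIGD1A, AC108052.1, CSNK2B and COA3 completed the first 15 with ratios from 1.56 to 1.46. The runner-up was cluster 5 for 11 of these 15 genes. LY6E (0.986 against 0.497) and BEX1 (1.22 against 0.649), both named after their values were seen, had larger ratios still, 1.82 and 1.76, at a lower average.

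Genes below every other cluster were more frequent. A total of 34 genes (0.343%) lay at or below the lowest other cluster divided by 1.5, and 1413 were at their lowest in cluster 11. The smallest ratio among genes with an average of at least 0.5 was that of PHGDH, the first enzyme of serine synthesis, with 0.342 in cluster 11 and 0.919 to 1.99 elsewhere. The translation initiation helicase EIF4A1 was 3.88, against 7.76 to 16.2. NPM1, a nucleolar chaperone, was 11.3, against 20.3 to 30.9. HMGCS1, an enzyme of cholesterol synthesis, was 0.208 against at least 0.465, the mitochondrial gene MT-ND5 2.07 against at least 4.11, and the chaperonin subunit CCT8 1.20 against at least 2.07. The first 10 also held the hexosamine pathway gene PGM3 (0.217), PELP1 (0.215) and the non-coding transcripts AC005355.1 (0.205) and AC011287.1 (0.181).

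Markers of separate clusters were then followed into cluster 11. For each other cluster, markers were the genes highest there among the 13 others, at 0.5 or more and at least 2-fold above the mean of the remaining 12. Cluster 11 had no part in that choice. Of the 1177 markers, 74 (6.29%) were at least 2-fold above the mean of the remaining 12 in cluster 11, and 162 (13.8%) at least 2-fold below it. The higher ones included markers of 9 clusters. Cluster 8 gave 19 of its 80 markers, cluster 6 gave 15 of 75, cluster 10 gave 14 of 81, cluster 3 gave 8 of 79, cluster 5 gave 7 of 15 and cluster 4 gave 5 of 77. From cluster 13 came 3 of 176, from cluster 1 came 2 of 5 and from cluster 0 came 1 of 163. None came from clusters 2, 7, 9 and 12.

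The markers of cluster 8 that were higher in cluster 11 included the mesendoderm genes LHX1 (2.89, and 3.91 in cluster 8), EOMES (1.31 and 1.54), MIXL1 (1.87 in both) and CER1 (1.74 and 2.55). These are transcription factors of the early endoderm and mesoderm and, in CER1, a secreted NODAL antagonist. The WNT inhibitor DKK4 stood at 4.38, against 8.17 in cluster 8. HIST1H4C, a histone H4 gene whose transcript rises in S phase, reached 22.4 here, close to the 23.8 of cluster 8, against a median of 3.82 over the 13 others. The linker histone gene HIST1H1D did not follow it, with 0.632 in cluster 11 and 4.58 in cluster 8.

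From cluster 6, the cluster with most EC gene expression, the microRNA host gene MIR302CHG (4.33 and 7.62) and POU5F1 (1.78 and 3.96), both active in pluripotent cells, were at least 2-fold above the remaining mean. So were MT1X, MT1M and MT1F, which are markers of cluster 6 by this definition. ESRG (0.918 and 2.01) and AC064802.1 (0.593 and 1.41), non-coding transcripts, reached it too. From cluster 3 came the mitotic ubiquitin-conjugating enzyme UBE2C (5.68 and 7.78), whereas CENPF (1.54 and 6.12) and ASPM (0.603 and 2.79), both needed in mitosis, were not past 2-fold. From cluster 10 the non-coding LINC00458 (13.4 and 15.9) and CST1 were higher, and from cluster 4 the membrane protein gene EMP1 (1.18 and 3.88). MT2A was a marker of cluster 5 by this definition, and ANKRD1 and PMP22 of cluster 1.

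The positions of all markers of a cluster were then described, whether or not they were higher in cluster 11. On a scale with 0 at the mean of the remaining 12 clusters and 1 at the level in the marked cluster, the median position in cluster 11 was 0.32 for markers of cluster 5, 0.31 for cluster 8, 0.13 for cluster 6, 0.10 for cluster 3 and 0.09 for cluster 10. It was 0.14 for cluster 1, 0.08 for cluster 13 and 0.07 for cluster 2. It was negative for the markers of clusters 0 (-0.16), 4 (-0.03), 7 (-0.27), 9 (-0.25) and 12 (-0.18). Among the markers well below their own cluster were the presomitic mesoderm factor MSGN1 (0.0454, and 4.58 in cluster 9), the transcription repressor gene HES6 (0.261 and 12.6 in cluster 9) and the trunk homeobox gene HOXB9 (0.231 and 3.40 in cluster 7). COL1A2, a fibrillar collagen gene that marks cluster 12 with 2.21, was 0.0587 in cluster 11. HES6 was named after its value was seen.

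The order of the marker sets mostly followed the main library. In the 5 clusters that drew at least 50% of their cells from it (5, 8, 10, 6 and 3), 63 of 330 markers (19.1%) were higher in cluster 11. In the 5 clusters that drew less than 15% from it (0, 7, 9, 12 and 13), 4 of 733 (0.546%) were higher and 158 (21.6%) lower. Cluster 13, with 0% from that library, was an exception among them. Its 176 markers had a median difference of 0.14, and 7 of them were lower. Over the 12 sets of 10 or more markers, the median difference and the share of the main library had a Spearman rho of 0.86 and a Pearson r of 0.83. The sets come from the same pooled libraries, so these values only describe them. Cell state and library cannot be told apart in these averages. When every cluster was described in this way, between 1.74 and 17.7% of markers were higher, with 6.29% in cluster 11. That share was 14.5% after the median-of-ratios rescaling and 16.1% for markers at least 4-fold above the remaining clusters. Sets with more than 10% of their markers higher numbered 5 of 12 in cluster 11. They also numbered 5 of 12 in cluster 8, and 1 to 4 in the other clusters.

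**Figure D3:**
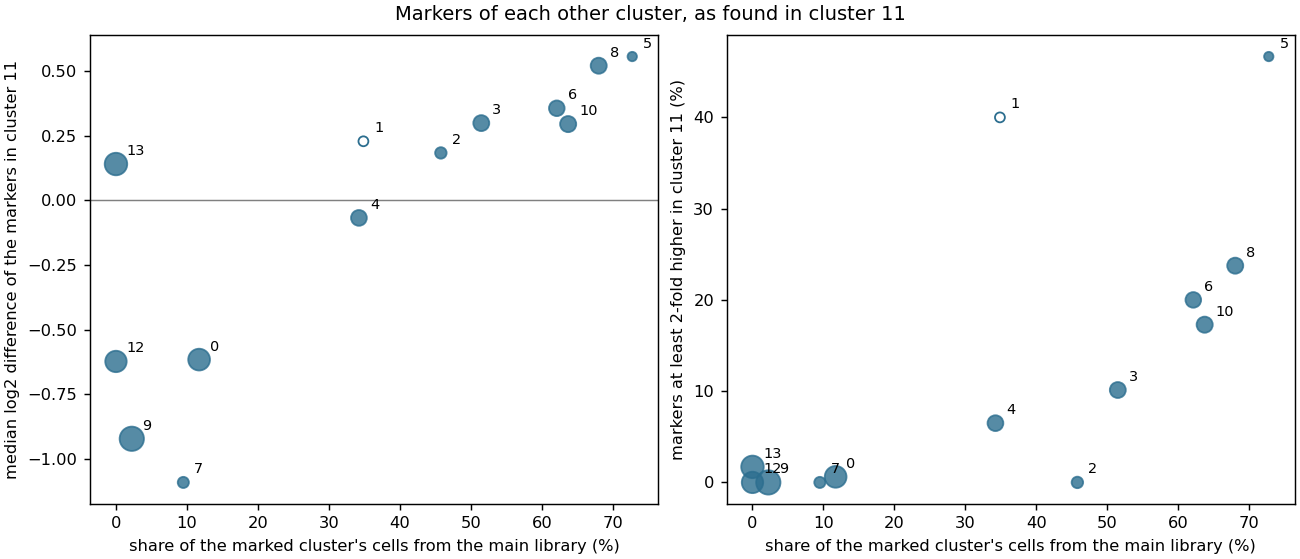
Markers of each other cluster in cluster 11: median log2 difference from the mean of the remaining 12 clusters (left, y axis) and share of markers at least 2-fold higher (right, y axis, %), against the share of the marked cluster's cells that came from the main library (x axis, %). Numbers name the marked cluster, larger dots stand for more markers, and the open dot is cluster 1 with 5 markers; the sets of clusters 5 and 8 lie highest (medians 0.56 and 0.52) and that of cluster 7 lowest (-1.09).

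A raised average can come from a few cells, so detection was compared. For 70 of the 74 higher markers a detection share in cluster 11 was listed. The median was 91.7% of the cells of cluster 11, against 35.3% of all other cells, and 63 of the 70 were detected in at least 80%. One gene was then taken for each marked cluster, the one with the largest difference among those listed (MFAP5, from cluster 0, was not listed for cluster 11). ANKRD1 (marker of cluster 1) was detected in 93.9% of the cells, UBE2C (cluster 3) in 98.5%, EMP1 (cluster 4) in 83.2% and MT2A (cluster 5) in 99.1%. LINC01405 (cluster 6) was detected in 92.2%, HIST1H4C (cluster 8) in 99.8%, LINC00458 (cluster 10) in 88.0% and KRT10 (cluster 13) in 100.0%. By arithmetic on these shares, at least 243 of the 459 cells (52.9%) held a UMI of all 8 genes. MT2A, HIST1H4C and KRT10 were common in all cells (77.7 to 90.9% elsewhere). The genes were picked for being higher in cluster 11 and listed for it. High shares there follow in part from that choice and are no separate support. Of the pair with the lowest shares, EMP1 and LINC00458, at least 70.8% of the cells held both. A single UMI counts as detection here, and no share in cells that lack these genes was set against it.

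These shares move with depth and with RNA that is free in the cell suspension. Elsewhere the same genes were detected in 26.7% (EMP1) to 90.9% (KRT10) of cells, at the lower implied totals given above. In the clusters they mark, detection was 63.0% for ANKRD1, 70.4% for EMP1, 67.9% for LINC01405 and 73.1% for LINC00458, in each case below the share in cluster 11. On the scale of averages per 10000 UMIs, EMP1 was 1.18 in cluster 11 and 3.88 in cluster 4. Cluster 4 held 747 cells of the main library (34.2% of its cells). In the 5 clusters with at least 50% of their cells from that library EMP1 was lower. It was 0.441 in cluster 5, 0.53 in cluster 3, 0.101 in cluster 6, 0.0842 in cluster 10 and 0.0737 in cluster 8. For LINC01405, ANKRD1, UBE2C and LINC00458 at least 1 of these 5 clusters was above cluster 11. LINC01405 was 2.07 in cluster 11, above clusters 10 (1.59), 5 (1.48), 3 (0.804) and 8 (0.279) but below cluster 6 (2.38). ANKRD1 was 5.09 against 5.28 in cluster 8. UBE2C was 5.68 against 7.78 in cluster 3, and LINC00458 was 13.4 against 15.9 in cluster 10. The part of depth and of free RNA in the detection shares was not tested.

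Fitted as a sum of the other clusters with non-negative weights, the profile of cluster 11 took a weight of 0.69 from cluster 5, 0.205 from cluster 8 and 0.106 from cluster 13. On unweighted averages the weights were 0.885, 0.123 and 0.0321. The fit left 22.4% of the UMIs unexplained. Only cluster 13 left more (44.8%), and the remaining clusters left 7.91% (cluster 3) to 19.6% (cluster 9). The weights describe likeness and are not shares of cells. The profile correlated most with cluster 5 (r = 0.97 over genes on the log2 scale), followed by clusters 8 and 3 (0.94 each), and least with cluster 9 (0.77). Genes are not independent replicates, and these values carry no p. The genes furthest above the fit were EMP1 (1.18, fitted 0.332), HIST1H4C (22.4, fitted 8.72), CD99 (6.65, fitted 2.73), SEC62, a subunit of the protein translocation machinery (3.10, fitted 1.28) and ARL6IP1 (3.14, fitted 1.32). They were named after their values were seen.

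Compared directly with cluster 5, only 24 genes (0.242%) stood 2-fold or more above it and 59 (0.595%) 2-fold or more below it. The higher genes were led by HIST1H4C (22.4 against 5.12, log2 2.11), SEC62 (3.10 against 1.09), CD99 (6.65 against 2.52) and ARL6IP1. ITGB1, an integrin subunit, followed with 4.40 against 1.71. CER1 (1.74 against 0.647), EMP1, ANKRD1 (5.09 against 2.11) and DKK4 (4.38 against 1.83) were also among them. The lower genes included the mitochondrial MT-ATP8 (0.917 against 4.44, log2 -2.16) and MT-ND4L (3.21 against 11.3), which overlap neighbouring genes and may share reads with them. EIF4A1, PHGDH, CCT8 and the glycolytic enzyme ENO1 (7.03 against 17.7) were at least 2-fold lower too. MT2A (32.0 against 24.3), MT1X (9.51 against 7.45) and TMSB10 (100.4 against 75.6) were not past 2-fold. Against cluster 8, 51 genes (0.514%) were higher and 369 (3.72%) lower. EMP1 (log2 2.88), LINC01405 (2.52), AC064802.1 (2.34), LINC00678 (2.16) and ESRG (2.07) led the higher genes, and HIST1H1D (-2.68) and HIST2H2AC (-2.52), both histone genes, the lower ones. Genes in both comparisons were named after their values were seen.

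Cluster 11, cluster 5 and cluster 13 shared a pattern by gene length. Of the expressed genes, 9477 (95.6%) were matched to a GENCODE 44 transcript. Over 5 groups of equal size, from the shortest to the longest transcripts, the median difference in cluster 11 was 0.07, -0.21, -0.31, -0.41 and -0.55. Over genes, Spearman's rho with transcript length was -0.42 for cluster 11, -0.44 for cluster 5 and -0.52 for cluster 13, and between 0.01 and 0.34 for the other 11 (a description, with no p). The genes at least 2-fold higher in cluster 11 had a median transcript length of 1190 bases and those at least 2-fold lower 5240, with 3436 for all. Of the 72 higher genes with a length, 48 fell in the shortest group (up to 1759 bases) and 0 in the longest. Of the 552 lower genes, 230 fell in the longest group (6112 bases or more). The metallothioneins belong to the short genes, with MT2A at 401 and MT1X at 404 bases, and so do TMA7 (561 bases) and RPL41 (676 bases). The median implied total was 96228 in cluster 11 and 26981 in cluster 5, and the part of depth in this pattern was not tested.

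**Figure D4:**
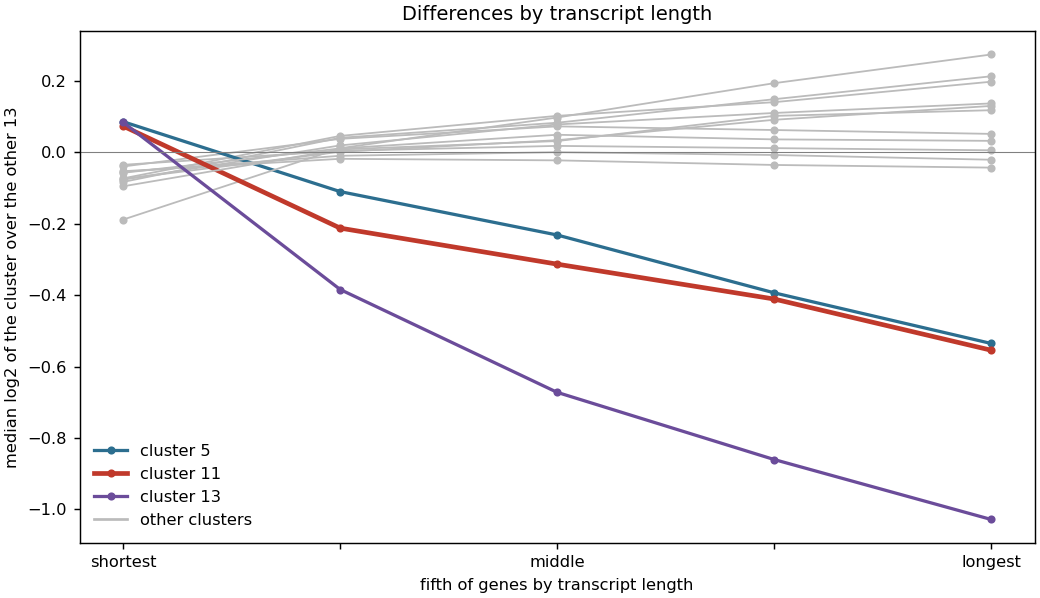
Median log2 difference of each cluster from the other 13 (y axis) for expressed genes in 5 groups of increasing transcript length (x axis). Cluster 11 (red) goes from 0.07 in the shortest to -0.55 in the longest group, clusters 5 and 13 go the same way, and the other 11 clusters (grey) stay flat or go the opposite way.

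By the summed levels of the mesendoderm and of the EC lists, cluster 11 ranked 5 of 14 (9.14 and 6.89 UMIs per 10000, with medians of 5.68 and 5.54 over the other clusters). Counts past 2-fold in this and all later lists are to be read against the shares over all genes (0.817% higher and 6.14% lower). Of 7 expressed mesendoderm and definitive endoderm genes 4 were at least 2-fold higher and 1, SOX17, lower (median difference 1.20). The 4 were EOMES (1.32), LHX1 (1.32), MIXL1 (1.31) and CER1 (1.20). Of 8 expressed EC and pluripotency genes 1, the NODAL co-receptor TDGF1 (1.06), was past 2-fold, and the median was 0.13. POU5F1 was 0.79 on this scale and NANOG 0.47. For 8 expressed YST genes the median was 0.62, with ANKRD1 (1.57) higher and SOX17 (-2.13) and the glypican GPC3 (-2.69) lower. GPC3 had its lowest average in cluster 11 (0.209), with cluster 5 next (0.299), and its highest in cluster 9 (9.78). ANKRD1 and CST1, given as markers of the cluster, are both on this list. Of the 26 expressed secreted YST factors 1 was higher and 3 were lower, with a median of -0.17.

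Lists for other tissues were mostly below the median of all genes. The parietal endoderm matrix list had a median of -0.90 with 2 of 8 lower, led by the laminin LAMB1 (-1.47) and the collagen COL4A1 (-1.37). The mesenchyme list had a median of -0.82 (2 of 8 lower), and the epithelial adhesion and keratin list -0.60 (2 of 7 lower), with the desmosome gene DSP at -1.86. Of the presomitic mesoderm genes 2 were expressed, MSGN1 (-2.28) and DLL3 (-0.90). None of the trophoblast genes reached the minimum average of 0.1, and GATA3 was 0.117 in cluster 11. Neural genes had 2 expressed members, TUBB3 (-0.91) and NES (-0.68), and the endothelial and blood genes 1, RUNX1 (-0.68). Of these 2 lists the summed levels were 1.37 and 0.488. The fibroblast and stroma list (4 expressed, median -0.03) was led by COL6A3 (-1.23) and TAGLN (0.60), and the seminoma and germ cell list (3 expressed, median -0.05) by PRDM1 (-0.72).

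The pathways stimulated by the medium did not show a common direction. With every cell treated alike, these lists carry no test of the treatment. Of 11 expressed WNT targets 7 were at least 2-fold lower in cluster 11 and 1 was higher, with a median of -1.09. NOTUM (-2.11), NKD1 (-2.09) and AXIN2 (-1.86), all feedback inhibitors of the pathway, were lower, while DKK4 (1.40), a secreted inhibitor, was higher. NKD1 was 1.14 in cluster 11, the lowest of the 14, and 22.1 in cluster 9. Clusters 6 (1.24) and 5 (1.70) were close to cluster 11. AXIN2 was 0.16 in cluster 11 and 0.25 in cluster 5. NOTUM was lower in cluster 6 (0.199) than in cluster 11 (0.217). DKK4, at 4.38 in cluster 11, was 1.83 in cluster 5 and 0.139 in cluster 6. Of 6 expressed NODAL and Activin targets 2 were higher, CER1 and TDGF1, and 1 was lower, SKIL (-1.05), with a median of -0.02. Of 12 FGF and MAPK targets 0 were past 2-fold upwards and 1, the phosphatase DUSP6 (-1.63), was lower. Their median was 0.41, with FOSL1 (0.83) and ETV5 (0.65) at the top. YAP targets had a median of -0.09, and ANKRD1 was the only 1 of 11 past 2-fold.

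The immediate early genes had the lowest median of the stress lists, followed by the p53 targets and the ATF4 response genes. Of 12 immediate early genes 6 were at least 2-fold lower and 0 higher (median -1.02), among them EGR1 (-2.02), FOS (-1.92), JUNB (-1.57) and JUN (-1.52). EGR1, FOS, JUN and ATF3 had their lowest average of the 14 clusters in cluster 11. Cluster 5 came next for EGR1 (0.157 and 0.173) and FOS (0.302 and 0.385). ATF3 was 0.240, against at least 0.414 elsewhere. Of 13 unfolded protein and ATF4 response genes 4 were lower (median -0.58), with PHGDH (-1.67) and the stress transcription factor DDIT3 (-1.66) at the bottom. The p53 targets had 1 of 11 lower, GDF15 (-1.81), and a median of -0.61. That count is near the share over all genes (6.14%). The oxidative stress list, with targets of NRF2, had a median of -0.08, above that of all genes. Of its 15 genes 1 was lower, NQO1 (-1.04), which is also near that share. GPX4 (0.95) and the ferritin FTH1 (0.60) were highest in cluster 11. Heat shock and chaperonin genes had a median of -0.47, with 0 of 14 past 2-fold in either direction. CCT5 (-0.97) and HSP90AB1 (-0.94) were at the bottom and HSPE1 (0.92) at the top.

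The 77 expressed ribosomal protein genes had a median of 0.17, and 53 were above 0, with RPL29 (1.18) as the only 1 past 2-fold and 12 at their highest in cluster 11. Of 14 ribosome biogenesis genes 1 was lower, NPM1 (-1.14), a share close to that of all genes (6.14%). Their median was -0.20, with 9 of 14 above the median of all genes. Their summed level of 26.1 was the lowest of the 14 clusters (32.7 to 49.8 elsewhere), and NPM1 alone made up 11.3 of it. Of 14 translation elongation and initiation genes 3 were lower, EIF4A1 (-1.27), EIF4A2 (-1.20) and EIF4B (-1.04), with a median of -0.50 and again the lowest sum (86.8, and 93.4 to 125 elsewhere). The amino acid, cholesterol and nucleotide synthesis list had 3 of 15 lower, among them HMGCS1 (-1.64) and the polyamine enzyme ODC1 (-1.31), with a median of -0.55 and the lowest sum (10.9). Nuclear oxidative phosphorylation genes had a median of 0.32 with 0 of 16 past 2-fold, and COX5B (0.95) at the top. The mitochondrial genome list had a median of -0.11 and 3 of 13 lower, MT-ATP8 (-1.49), MT-ND5 (-1.27) and MT-ND4L (-1.24). Glycolysis and hypoxia genes had a median of 0.05 with 0 of 15 past 2-fold, from TPI1 (0.95) to ENO1 (-0.75). The proteasome list was at -0.11 with 0 of 14 past 2-fold.

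The cell cycle genes were above the median of all genes, in 15 of 16 cases for S phase and 15 of 15 for G2/M, with few past 2-fold. The S phase genes had a median of -0.08 with 0 past 2-fold, and GINS2 (0.76) led them. Of 15 G2/M genes 1, UBE2C (1.58), was higher and the median was 0.13. Their summed level was 17.3 in cluster 11, the third of the 14, with 43.2 in cluster 3, the highest, and a median of 7.98 over the others. The list named nuclear retained transcripts was low, with 7 of 8 members at least 2-fold lower and a median of -1.29. KCNQ1OT1 (-1.71), GAS5 (-1.55) and MALAT1 (-1.43) led it. Where these transcripts lie in the cell was not measured. Of the 24 cisplatin resistance factors named by the study, which it picked with these libraries in view and which are not independent evidence of direction, 1 was higher, MT1F (1.13), and 1 lower, the polymerase subunit REV3L (-1.19), with a median of -0.49. Over all genes 0.817% were higher and 6.14% lower. The cystatins had a median of 0.49 over 3 expressed members, with CST1 (0.85) and CSTB (0.49) at the top and 0 past 2-fold. The 4 markers given for the cluster had a median of 1.31. Under the rescalings 10 of 37 medians (36 lists and the ribosomal protein genes) crossed 0, namely those of the NODAL, NRF2, S phase, YAP, fibroblast, mitochondrial genome, proteasome, ribosome biogenesis, secreted YST and seminoma lists, which were all below 0 as deposited.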

How the data were processed

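Single-cell RNA-seq (10x Chromium 3' v3.1) was performed by the authors on 1 library per line. The submitters' processing notes name Cell Ranger 7.0, Seurat 4.1.1 and GRCh38, and for the annotation no release was found in the labels, files or methods. Per the study's methods, cells with few genes or many mitochondrial reads and called doublets had been removed, and counts were normalized and clustered. The deposited tables held cell counts (one count for each cluster in each library code), the averages per cluster (signal in UMIs per 10000, pooled over libraries) and, per marker gene, the fraction of cells with a UMI inside and outside a cluster. The fold changes and p-values of the marker table were not used. The 3 library codes matched no sample label.

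Here the column of cluster 11 was compared with the other 13 on log2(average + 0.1) for genes averaging at least 0.1 (Python 3.11.15, pandas 2.3.3, numpy 2.4.6, scipy 1.17.1, matplotlib 3.10.9). Total UMIs per cell were not given, so depth was inferred from shared low averages, and the precision of the averages is unknown. Intervals are exact binomial and cover counting error only. The sum fit used non-negative least squares. Transcript lengths were from GENCODE 44. The computations were tested on simulated data. Named were all metallothioneins, ANKRD1, CST1 and SOX17, the 15 genes furthest above and 10 furthest below all other clusters (averages of at least 0.5), up to 4 genes per list with the largest differences, and the first 2 markers of each cluster. Other named genes were chosen after their values were seen. The cluster, lists and rules were chosen with earlier results of these data known.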

Additional observations from a re-analysis of the deposited data

How the results depend on the processing

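Counts depended on the scale. The genes at least 2-fold higher in cluster 11 numbered 145 with a pseudocount of 0.01, 16 with 1, 53 at a minimum average of 0.5, 299 after median-of-ratios scaling and 128 with ribosomal and mitochondrial genes left out of the totals. The lower genes numbered 1717, 22, 370 and 195 under the first 4 of these. Genes 1.5 times above the highest other cluster numbered 23, 2, 9, 55 and 24 in the same order. Higher markers of other clusters numbered 11 of 263 with a pseudocount of 1, 42 of 557 at a minimum of 0.5, 284 of 1955 after median-of-ratios scaling, 49 of 862 without clusters under 250 cells and 27 of 168 for 4-fold markers. The summed metallothionein level was 58.2 and 62.7 under the rescalings, above the highest other cluster (43.0 and 49.6). The unexplained part of the sum fit was 23.0% on unweighted averages, 24.0% without ribosomal and mitochondrial genes and 22.2% at a minimum of 0.5. The implied total was 89994 for values shared by 2 or more genes and 101586 for 5 or more. Of the 76 named genes past 2-fold, 51 remained past it after median-of-ratios scaling, 20 with a pseudocount of 1 and 64 to 76 under the other 4 alternatives. The cause of these shifts was not tested. No paired analysis was possible because no result came from a test and the averages pool the libraries. Leaving out a library could not be run for the same reason, and shallow clusters (13, with 42 cells) limit every count that compares with all clusters.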

Other observations

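Other named markers of single clusters were far from their own level in cluster 11. AREG, an EGF receptor ligand that marks cluster 0 with 2.75 UMIs per 10000, was 0.176, and SORBS2, a cytoskeletal adaptor with 11.5 there, was 0.705. The netrin receptor gene UNC5D was 1.85, against 6.67 in cluster 2, which it marks. HOXC8, a trunk homeobox gene, was 0.0611 in cluster 11 and 1.59 in cluster 7. The non-coding LINC00922 was 0.0164 against 2.75 in cluster 9, and LINC02476 was 0.0485 against 4.15 in cluster 12.

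Some genes passed the level of the cluster that they mark. The epidermal-type keratin gene KRT10 was 7.57 in cluster 11 and 6.75 in cluster 13. SH3BGRL3, a small thioredoxin-fold protein gene, was 6.68 against 6.28 in cluster 4, and AC108052.1 was 3.05 against 2.05 in cluster 10. The cell cycle transcription factor gene MYBL2 was 1.29 and 1.28 in cluster 6, a difference for which no error is known. SH3BGRL3 and MYBL2 were named after their values were seen.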
